A study of Caenorhabditis elegans with 8 samples.

Results

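The central windows of 4 autosomes of *Caenorhabditis elegans* were examined for the excision repair of UV damage. Chromosomes II, III, IV and V were cut into windows of 10 kb (WBcel235), and a window was taken as central when its middle fell in the middle one of 3 equal parts of its chromosome. This gave 2251 central windows of 10024 nuclear windows, with 510 on II (5090001 to 10190000), 460 on III (4590001 to 9190000), 583 on IV (5830001 to 11660000) and 698 on V (6970001 to 13950000). The other 4495 windows of these chromosomes are called arm windows. The rule used position only, and no measured value.

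XR-seq reads the excised fragments that nucleotide excision repair releases from damaged DNA, and each read marks a repair event on one strand. Fragments were selected with an antibody for cyclobutane pyrimidine dimers (CPDs), which UV forms mostly at adjacent thymines (TT). In all, 8 libraries were used in 4 groups of 2 replicates. The groups were a population of all stages of the *xpc-1* strain TG2226 (mixed-stage *xpc-1*), L1 larvae of the *csb-1* strain RB1801, L1 larvae of the wild-type strain N2 ancestral (WT), and WT L1 larvae that were not irradiated (WT no UV). The irradiated worms received UVB of 313 nm and were collected 1 h later, and the L1 larvae had been arrested without food and then fed before irradiation. Each mutant group is a single strain, so other differences between strains are not separated from the named gene. Mixed-stage *xpc-1* differs from WT in both genotype and stage, and these cannot be told apart. In whole worms, fewer cells of a type and less repair per cell cannot be told apart either. The labels do not say whether replicates came from separate cultures, and p-values then measure only the spread between these libraries.

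Excision repair in worms runs along a pair of branches. In global repair, XPC-1 finds lesions anywhere in the genome. In transcription-coupled repair (TCR), CSB-1 acts where RNA polymerase II stalls at a lesion in the transcribed strand (TS), the strand that serves as the template, and the other strand is the non-transcribed strand (NTS). The *csb-1* strain has global repair only, and the *xpc-1* strain has TCR only. The centres of the worm's autosomes are known for low recombination, conserved genes and operons, whereas the arms hold more repeats and more fast-evolving gene families such as chemoreceptors.

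The libraries differed in depth. Kept reads numbered 4762651 and 143716 in mixed-stage *xpc-1*, 6628507 and 13203914 in *csb-1*, then 8198054 and 3252700 in WT, and 10260 and 12916 in WT no UV. A central window had a median of 435 and 14 reads in mixed-stage *xpc-1*, 763 and 1557 in *csb-1*, then 941 and 370 in WT, and 1 in each WT no UV library. Single windows are therefore not described in WT no UV, where 682 and 522 central windows had no read, a count that allows up to 3 reads each. In a check on reads of a single length, TT lay 6 nt from the 3′ end in 47.7% and 45.5% in mixed-stage *xpc-1*. The share was 52.4% and 50.3% in *csb-1*, 51.8% and 53.2% in WT, and only 26.8% and 18.6% in WT no UV. Reads of WT no UV are therefore taken as background, and their density is not a measure of the repair of UV damage. Marker genes of the germline (*pgl-1*, *glh-1*, *gld-1*, *oma-1*, *oma-2*, *mex-3* and *rme-2*) had 23.9 and 10.9 TS RPKM (reads per kb of gene, scaled to library depth) in mixed-stage *xpc-1*, 4.71 and 4.76 in *csb-1*, against 4.64 and 5.01 in WT. The mixed-stage *xpc-1* values rest on 2552 and 35 reads. All other marker lists (sperm, vitellogenins, body wall muscle, intestine, neurons, hypodermis) lay within 0 to 19.6 in the irradiated libraries, with neurons highest in mixed-stage *xpc-1* at 10.3 and 19.6, beside 4.97 and 5.04 in *csb-1*, then 6.97 and 7.16 in WT. Adult lists went the other way. Sperm genes had 0.0907 and 0 in mixed-stage *xpc-1* (5 and 0 reads), 0.430 and 0.523 in *csb-1*, against 0.316 and 0.398 in WT. They are the major sperm protein genes, near-identical copies of which few reads were kept. Vitellogenins had 0.551 and 0.891 in mixed-stage *xpc-1* (82 and 4 reads), 1.26 and 1.36 in *csb-1*, against 1.09 and 1.00 in WT. Global repair, which the *xpc-1* strain lacks, also reaches genes that are not transcribed, so these levels do not reflect cell types alone. Muscle, intestine and hypodermis lists overlapped between mixed-stage *xpc-1* and WT. The part of these cells in the results for mixed-stage *xpc-1* was not tested.

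Repair concentrates at TT, and 5 stretches of 100 bases of RefSeq sequence (WBcel235) show what the reads in the highest central windows came from. Each is the most-read stretch, on one strand, of a window that ranked among the highest in WT or mixed-stage *xpc-1*, and it is printed 5′ to 3′ on the strand that held the reads, with TT in capitals.
*cls-2* coding exon, chrIII:9055221-9055320, minus strand: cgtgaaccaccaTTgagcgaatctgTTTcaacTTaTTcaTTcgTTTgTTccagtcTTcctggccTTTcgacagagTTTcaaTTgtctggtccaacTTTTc
*vhp-1* intron, chrII:5333901-5334000, minus strand: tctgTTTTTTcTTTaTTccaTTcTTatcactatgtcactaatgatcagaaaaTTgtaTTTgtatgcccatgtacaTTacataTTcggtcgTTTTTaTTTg
*vhp-1* intron, chrII:5336661-5336760, plus strand: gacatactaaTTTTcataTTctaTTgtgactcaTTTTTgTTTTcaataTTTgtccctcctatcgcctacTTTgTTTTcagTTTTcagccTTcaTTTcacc
outside annotated genes, chrII:6822471-6822570, minus strand: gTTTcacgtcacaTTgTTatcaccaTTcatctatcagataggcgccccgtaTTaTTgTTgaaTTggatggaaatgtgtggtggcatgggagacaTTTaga
*egl-27* intron, chrII:6835771-6835870, minus strand: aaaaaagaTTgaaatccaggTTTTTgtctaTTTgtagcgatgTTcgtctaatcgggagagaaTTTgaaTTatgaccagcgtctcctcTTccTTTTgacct

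The strand shown holds more TT than its partner in each of these stretches, with 18 against 5 at *cls-2*, 21 against 4 and 25 against 2 at *vhp-1*, 11 against 3 in the stretch outside genes and 15 against 10 at *egl-27*. In the *cls-2* exon, the strand shown is the TS and had 88 and 6 reads in mixed-stage *xpc-1*, 26 and 38 in *csb-1*, against 45 and 13 in WT. The opposite strand had 0 and 0 reads in mixed-stage *xpc-1*, 4 and 10 in *csb-1*, against 11 and 3 in WT. The stretch outside genes behaved otherwise, with 5 and 0 reads in mixed-stage *xpc-1*, 67 and 104 in *csb-1*, against 80 and 26 in WT on the strand shown. These stretches were picked for their reads in 1 library, WT replicate 1 or mixed-stage *xpc-1* replicate 1, and the counts are a description. The second *vhp-1* stretch lies on the NTS of that gene and had 61 and 1 reads in mixed-stage *xpc-1*, 23 and 29 in *csb-1*, against 32 and 19 in WT.

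How repair at the centres compared with the arms was examined as the reads per TT site of both strands, divided by the same value over all windows of the library, called relative repair density (1 is the library's genome mean). Central windows had a relative density of 1.44 and 1.47 in mixed-stage *xpc-1*, 1.25 and 1.24 in *csb-1*, then 1.27 and 1.25 in WT, and 1.25 in each WT no UV library. Arm windows of the same chromosomes had 0.828 and 0.774 in mixed-stage *xpc-1*, 0.793 and 0.809 in *csb-1*, then 0.781 and 0.787 in WT, and 0.867 and 0.859 in WT no UV. All 8 libraries were thus above their mean in the centres and below it in the arms, including the unirradiated ones.

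The ratio of centre to arm density was 1.82 ± 0.115 in mixed-stage *xpc-1*, 1.55 ± 0.0243 in *csb-1*, 1.61 ± 0.0227 in WT and 1.44 ± 0.00953 in WT no UV (SD, n = 2 each). Over the 6 irradiated libraries the mean log2 ratio was 0.73, above 0 in each (exact sign permutation test, two-sided p = 0.03125, the smallest that 6 libraries allow). This test asks only whether the ratio exceeds 1, which the WT no UV libraries did as well, at 1.44. It also takes replicates of a group as separate units. The p-value therefore cannot set repair of UV damage apart from background. Between groups, the log2 ratio differed by 0.18 for mixed-stage *xpc-1* minus WT, -0.05 for *csb-1* minus WT and 0.15 for WT minus WT no UV. Each of these gave p = 0.3333 in an exact two-sided permutation test, the smallest that 2 against 2 can reach. Regions also differed in how many reads can be placed: 92.6% of TT sites in the centres and 83.5% in the arms lay in 21-base sequences that occur once in the genome. Counting only such TT sites, a choice made after seeing the data, lowered the ratio to 1.64 in mixed-stage *xpc-1*, 1.40 in *csb-1*, 1.45 in WT and 1.30 in WT no UV. The part of read placement in the remaining ratio was not tested further.

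**Figure D1:**
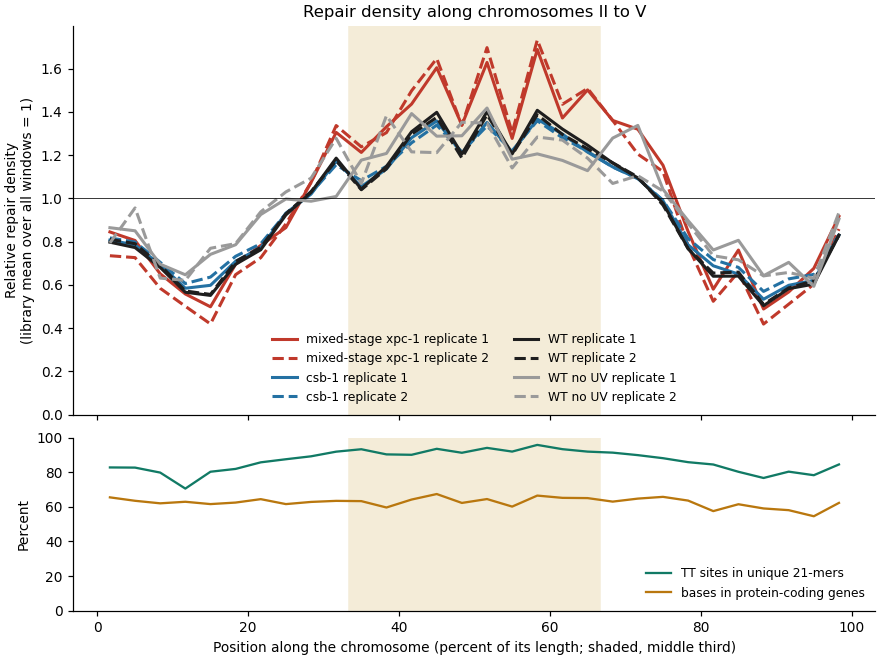
Relative repair density of the 8 libraries in 30 bins along chromosomes II to V, by position as a percentage of chromosome length (upper plot; 1 is the library's mean over all windows), with the percentage of TT sites in unique 21-mers and of bases in protein-coding genes (lower plot). All libraries are high in the shaded centre, up to 1.69 and 1.73 in the mixed-stage *xpc-1* replicates, and the share of bases in genes is nearly level along the chromosome.

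The 4 chromosomes differed from one another most in mixed-stage *xpc-1*. Its centre density was 1.60 ± 0.0620 on II, 1.88 ± 0.0722 on III, 1.34 ± 0.0168 on IV and 1.17 ± 0.0867 on V (SD, n = 2 each). In *csb-1* the same values were 1.33 ± 0.0135, 1.24 ± 0.00230, 1.16 ± 0.00587 and 1.25 ± 0.00301, and in WT they were 1.37 ± 0.00901, 1.30 ± 0.00450, 1.16 ± 0.00858 and 1.23 ± 0.0169 (SD, n = 2 each). Chromosome III was thus the highest centre in mixed-stage *xpc-1*, and chromosome II in both L1 strains. The arms of III were also the highest arms in mixed-stage *xpc-1* (1.14 and 1.00), and all windows of chromosome I had 1.38 and 1.23. On V, the mixed-stage *xpc-1* replicates (1.11 and 1.23) did not stand apart from WT (1.24 and 1.22). The ratio of centre to arm stayed above 1 on each chromosome in each library, between 1.70 and 2.03 in mixed-stage *xpc-1*, 1.49 and 1.65 in *csb-1*, then 1.51 and 1.73 in WT, and 1.39 and 1.50 in WT no UV.

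Chromosome X gave another picture from the autosome centres. Its windows had a relative density of 0.582 and 0.819 in mixed-stage *xpc-1*, where the replicates were far apart, 1.29 and 1.24 in *csb-1*, then 1.27 and 1.25 in WT, and 1.05 and 1.06 in WT no UV. The centres of the autosomes were therefore above X in both mixed-stage *xpc-1* libraries and close to X in each irradiated L1 library.

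**Figure D2:**
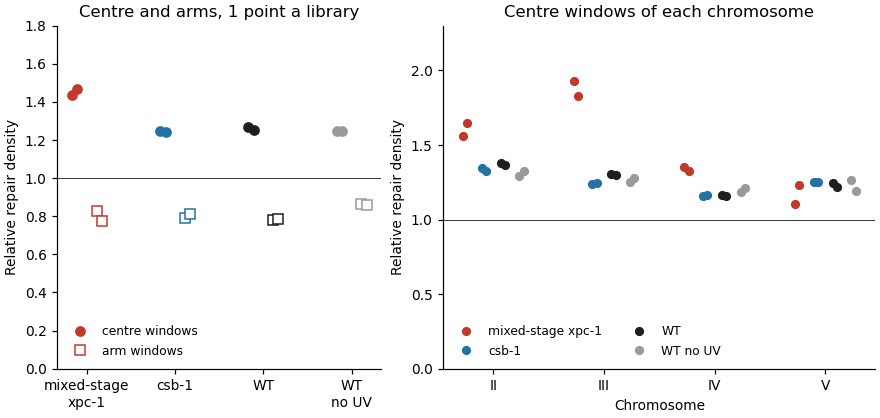
Relative repair density, 1 point for each library (1 is the library's mean over all windows). The left plot sets central windows (filled) beside arm windows (open), and the right plot gives the central windows of each chromosome, where mixed-stage *xpc-1* reaches 1.93 and 1.83 on III and 1.11 and 1.23 on V.

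How these levels relate to gene density was examined next, as the share of each window covered by protein-coding genes. Centres and arms were alike in this share, with 63.9% and 62.1% of bases, and differed more in coding exons, with 36.6% and 27.2%, and in gene starts, with 2.42 and 1.98 per window. Central windows were put into 4 classes of gene cover, of 411 (up to 40%), 476 (40 to 60%), 651 (60 to 80%) and 713 windows (over 80%).

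In mixed-stage *xpc-1* the density climbed with gene cover, with 0.709, 1.11, 1.46 and 2.09 in replicate 1 and 0.855, 1.22, 1.51 and 1.98 in replicate 2 from the lowest to the highest class. In *csb-1* it was nearly level, with 1.17, 1.24, 1.27 and 1.28 in replicate 1 and 1.15, 1.24, 1.27 and 1.29 in replicate 2. WT lay close to *csb-1*, with 1.15, 1.23, 1.29 and 1.35 in replicate 1 and 1.13, 1.21, 1.26 and 1.35 in replicate 2. The strain with TCR only thus had the steepest relation to genes, and the unirradiated libraries had 1.06 and 1.10 in the lowest class and 1.31 and 1.30 in the highest. The share of TT sites in unique 21-mers was 85.8% in the lowest class and 95.0% in the highest. Within each class the centres were above the arms in every library, by 1.60 to 2.01 times in mixed-stage *xpc-1*, 1.46 to 1.68 times in *csb-1*, 1.49 to 1.71 times in WT and 1.33 to 1.53 times in WT no UV.

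**Figure D3:**
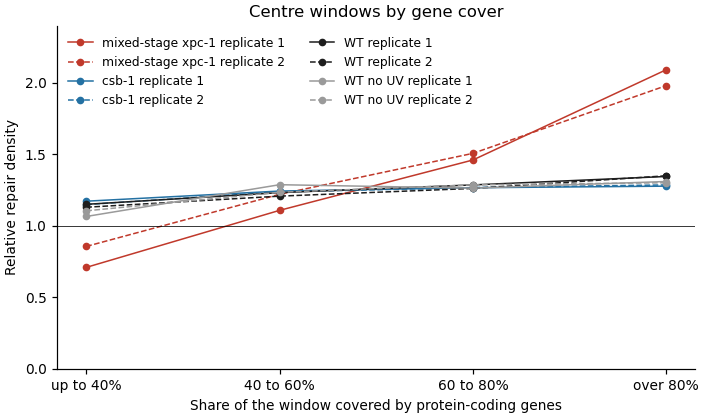
Relative repair density of central windows in 4 classes of gene cover, 1 line for each library (1 is the library's mean over all windows). Mixed-stage *xpc-1* climbs to 2.09 and 1.98 in the highest class, whereas the *csb-1* and WT libraries stay between 1.13 and 1.35.

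Across the 2251 central windows, Spearman's rho between gene cover and density was 0.38 and 0.33 in mixed-stage *xpc-1*, 0.08 and 0.11 in *csb-1*, then 0.13 and 0.16 in WT, and 0.09 and 0.11 in WT no UV. Windows of a library share its depth and their base composition, and rho with GC content was 0.44 and 0.39 in mixed-stage *xpc-1*, 0.24 and 0.25 in *csb-1*, then 0.28 and 0.31 in WT, and 0.20 and 0.25 in WT no UV. These correlations are a description across windows, which are not replicates. Outside protein-coding genes, the central windows had a density of 0.817 and 0.896 in mixed-stage *xpc-1*, 1.28 and 1.24 in *csb-1*, against 1.26 and 1.21 in WT. Mixed-stage *xpc-1* was thus below its genome mean between the genes of the centres, and the L1 strains were above theirs.

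Chromosome IV holds clusters of piRNA genes, short genes of the germline's small RNA defence. Its 53 central windows with at least 10 piRNA gene starts had a density of 0.562 and 0.661 in mixed-stage *xpc-1*, 0.954 and 0.981 in *csb-1*, against 0.922 and 0.889 in WT. The other central windows of IV had 1.44 and 1.40 in mixed-stage *xpc-1*, 1.18 and 1.19 in *csb-1*, and 1.19 in each WT library. Every irradiated library was lower in the piRNA windows, and so were the unirradiated ones, at 1.06 and 0.814 against 1.20 and 1.26.

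The strand of repair was compared over bases covered by protein-coding genes of one strand only. In the centres, mixed-stage *xpc-1* had 989479 and 29771 reads on the TS and 134337 and 4302 on the NTS, and *csb-1* had 518595 and 1053786 against 536826 and 1084265. WT had 757805 and 311355 reads on the TS and 596252 and 228508 on the NTS, and WT no UV had 883 and 1109 against 910 and 1135. Divided by the TT sites of each strand, the TS to NTS ratio was 7.45 and 6.999 in mixed-stage *xpc-1*, 0.977 and 0.983 in *csb-1*, then 1.29 and 1.38 in WT, and 0.981 and 0.988 in WT no UV. The TS was favoured in mixed-stage *xpc-1* and WT, and neither *csb-1* nor WT no UV exceeded 1 in any library. The log2 ratio differed by 2.44 for mixed-stage *xpc-1* minus WT, by -0.44 for *csb-1* minus WT and by 0.43 for WT minus WT no UV, with groups that did not overlap and p = 0.3333 each (exact two-sided permutation test, the smallest that 2 against 2 allows).

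Each strand was also taken alone. These values are shares of a library's own reads, so a higher share on one strand lowers the other, and the change of either strand by itself cannot be read from them. The relative density of the TS in the centres was 3.21 ± 0.00674 in mixed-stage *xpc-1*, 1.22 ± 0.0172 in *csb-1* and 1.46 ± 0.0360 in WT, and that of the NTS was 0.445 ± 0.0187 in mixed-stage *xpc-1*, 1.25 ± 0.0122 in *csb-1* and 1.09 ± 0.0268 in WT (SD, n = 2 each). The TS to NTS ratio of the centres was above that of the arms in mixed-stage *xpc-1* (7.22 ± 0.318 in the centres and 5.46 ± 0.280 in the arms) and in WT (1.33 ± 0.0655 and 1.26 ± 0.0400). Within each library, WT had 1.29 in the centres and 1.23 in the arms in replicate 1, and 1.38 and 1.28 in replicate 2. In *csb-1* the ratio was 0.980 ± 0.00418 in the centres and 0.970 ± 0.00412 in the arms (SD, n = 2 each). The gap had the same sign in all 6 irradiated libraries and opposite signs in the 2 WT no UV libraries, and it was not tested. By chromosome, the ratio in the centres lay between 6.45 and 7.89 in mixed-stage *xpc-1*, with III highest in both replicates. It ran from 0.967 to 0.989 in *csb-1* and from 1.23 to 1.47 in WT, where III was again highest in both replicates. The arms of III were likewise the highest arms, at 6.06 and 5.88 in mixed-stage *xpc-1* and 1.27 and 1.34 in WT.

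**Figure D4:**
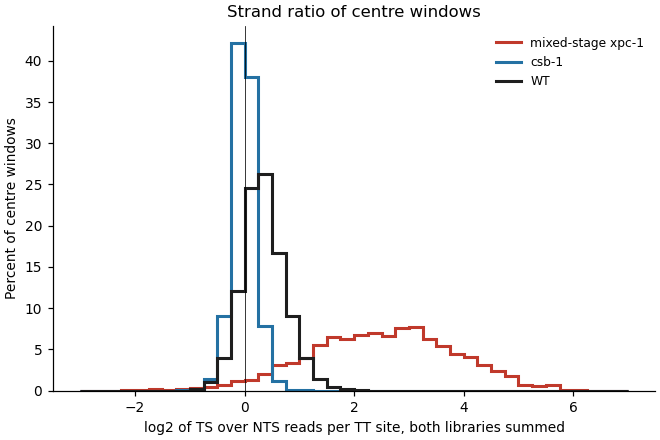
Distribution over central windows of the log2 ratio of TS to NTS reads per TT site, with the reads of both libraries of a group summed (x axis) and the percentage of windows (y axis). The medians are 2.54 in mixed-stage *xpc-1*, -0.01 in *csb-1* and 0.31 in WT, and 96.9%, 47.2% and 82.8% of windows lie above 0.

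The preference was seen in most windows. With both libraries summed, the median log2 TS to NTS ratio was 2.54 over 2127 windows in mixed-stage *xpc-1*, -0.01 over 2152 windows in *csb-1* and 0.31 over 2152 windows in WT. The middle 80% of windows ran from 0.80 to 4.20 in mixed-stage *xpc-1*, from -0.26 to 0.24 in *csb-1* and from -0.10 to 0.86 in WT. Windows in which WT favoured the TS were the rule, at 82.8%.

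Because neighbouring genes often point the same way, the strand of genes should show in the genome strand of the reads. Of the central windows with at least 1000 bases in genes of one strand, 637 had 80% or more of these bases in plus-strand genes, 594 had 80% or more in minus-strand genes and 930 lay between. The density on the minus strand over that on the plus strand was 3.96 and 3.67 in mixed-stage *xpc-1* where genes were mostly on the plus strand, and 0.261 and 0.270 where they were mostly on the minus strand. The same ratio was 0.962 and 0.978 and then 1.03 and 1.02 in *csb-1*, and 1.14 and 1.21 and then 0.881 and 0.835 in WT. Repair in mixed-stage *xpc-1* and WT thus lay on the strand opposite to the prevailing genes, and *csb-1* leaned slightly the other way in both classes. Windows with genes on both strands had 0.965 and 0.994 in mixed-stage *xpc-1*, 1.00 in each *csb-1* library and 0.997 in each WT library. Across the 2251 windows, rho between this strand balance and the net orientation of genes was 0.74 and 0.65 in mixed-stage *xpc-1*, -0.12 and -0.09 in *csb-1*, against 0.47 and 0.49 in WT, as a description.

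**Figure D5:**
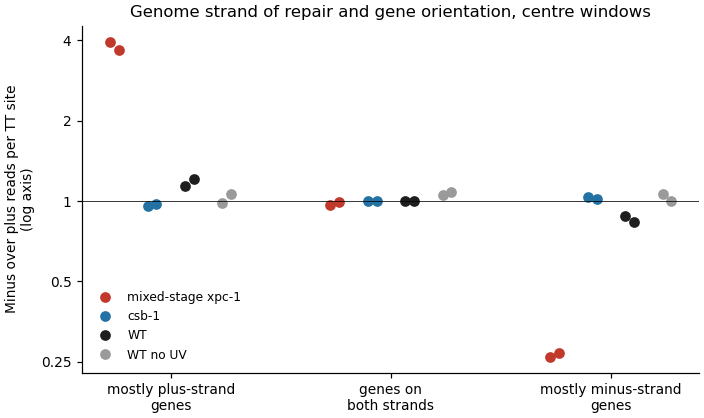
Reads per TT site on the minus strand over those on the plus strand (log axis) in central windows grouped by the strand of their genes, 1 point for each library. Mixed-stage *xpc-1* gives 3.96 and 3.67 among plus-strand genes and 0.261 and 0.270 among minus-strand genes, and *csb-1* stays between 0.962 and 1.03.

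Window by window, *csb-1* was set against WT with limma on log2 reads scaled to library depth, with adjustment over all 9968 windows with a mean of at least 20 reads. Of 2236 central windows tested, 486 (21.7%) were higher and 279 (12.5%) lower in *csb-1* at an adjusted p under 0.05 (limma), beside 19.7% higher and 10.7% lower over all windows. The shares in the centres are near those background shares. The median difference was 0.05 over central windows and 0.07 over all. The split depends on the scaling: with each library scaled to its median window, 286 central windows were higher and 321 lower. Leaving out a library leaves its group with 1 sample, which is assumed to vary like the other group, and fewer degrees of freedom. The counts were then 64 higher and 139 lower without *csb-1* replicate 2, and 236 and 108 without WT replicate 2.

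Among windows that were lower in *csb-1*, the largest difference was in the window from 10130001 to 10140000 of chromosome V, with *wdr-20* and C08B6.8, where the relative density was 0.685 and 0.750 in *csb-1*, against 1.12 and 1.33 in WT. The log2 difference was -0.77 for *csb-1* minus WT (SE 0.10, adjusted p = 1.03e-12 from limma). Mixed-stage *xpc-1* had 3.60 and 4.20 in the same window. The window from 8440001 to 8450000 of III holds *hsp-110*, a chaperone, *rpn-3*, a proteasome subunit, and *ufbp-1*, and had 0.982 and 1.01 in *csb-1*, against 1.61 and 1.62 in WT (difference -0.70). Next came the windows of *vhp-1* (II, 5330001 to 5340000), of *unc-116*, *rfp-1* and R05D3.8 (III, 8350001 to 8360000), and of *let-711* (III, 6950001 to 6960000), with differences of -0.69, -0.69 and -0.62. *vhp-1* encodes a MAP kinase phosphatase, *unc-116* the heavy chain of kinesin-1 and *let-711* the scaffold of the CCR4-NOT complex. In each of these 5 windows both *csb-1* libraries were below both WT libraries, as the rule for naming them required. The call at *vhp-1* was lost without either WT library and with scaling to the median window.

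The 5 largest gains in *csb-1* were the windows of the chemoreceptor genes *sru-29*, *sru-30* and *sru-31* (V, 9810001 to 9820000; difference 0.75), of V from 7660001 to 7670000, which is 7.67% coding (0.71), of *dig-1* (III, 6770001 to 6780000; 0.71), of *fbf-1* (II, 6070001 to 6080000; 0.70), and of *sra-1*, *sra-2* and *mex-6* (II, 9520001 to 9530000; 0.70). *dig-1* encodes a giant protein of the extracellular matrix, and *fbf-1* an RNA-binding protein of germline stem cells. At the *sru* window the relative density was 0.631 and 0.811 in *csb-1*, against 0.432 and 0.417 in WT, and 0.139 and 0.272 in mixed-stage *xpc-1*. The libraries of each group were below their genome mean there. The calls at *dig-1* and *fbf-1* were lost without *csb-1* replicate 2 or without either WT library, and that at *dig-1* also with quantile normalization.

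Mixed-stage *xpc-1* was set against WT with limma and voom weights over 9952 windows. Of 2236 central windows, 726 (32.5%) were higher and 1131 (50.6%) lower in mixed-stage *xpc-1*, beside 26.1% higher and 56.2% lower over all windows. The median difference was -0.44 over central windows and -0.66 over all. Scaling to the median window turned the split round, to 986 higher and 650 lower in the centres. With every library thinned to 143716 reads, 262 were higher and 10 lower, and 594 and 678 without mixed-stage *xpc-1* replicate 1. By chromosome, 49.6% of the central windows tested on III, 33.6% on II, 32.6% on IV and 20.3% on V were higher. The arms had the same order, with 41.5% on III, 28.6% on II, 25.5% on IV and 15.8% on V. On chromosome I 44.7% of windows were higher, so this order is not particular to the centres.

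The 5 largest gains among central windows lay on III and V. The window from 7580001 to 7590000 of V, with *ints-9*, a subunit of the Integrator complex that processes small nuclear RNAs, had a relative density of 3.68 and 2.84 in mixed-stage *xpc-1*, 0.684 and 0.862 in *csb-1*, against 0.866 and 0.805 in WT. It was higher by 2.09 in mixed-stage *xpc-1* than in WT (SE 0.14, adjusted p = 2.11e-06 from limma). Its neighbour from 7570001 to 7580000, with *snu-66*, a splicing factor, and *ets-6*, differed by 1.94. On III, the window of *sumv-1* and *gop-1* (5250001 to 5260000) differed by 1.86 and that of *eftu-2*, a spliceosomal GTPase, and *npp-10*, a nucleoporin (6010001 to 6020000), by 1.85. The window from 6560001 to 6570000 of III, which differed by 2.00, is 0% covered by protein-coding genes. Its relative density was 1.56 and 0.808 in mixed-stage *xpc-1*, 0.454 and 0.471 in *csb-1*, against 0.362 and 0.381 in WT, and a pseudogene and a non-coding RNA, F27B3.9, are annotated there.

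The 5 largest losses were windows with few reads in mixed-stage *xpc-1*. The window of *hlh-14*, a proneural transcription factor (II, 5730001 to 5740000), had 97 and 0 reads in mixed-stage *xpc-1*, 805 and 1601 in *csb-1*, against 796 and 359 in WT, and differed by -3.07 (SE 0.46, adjusted p = 5.81e-05 from limma). The others were those of *str-176*, a chemoreceptor gene, and *oat-1* (IV, 8460001 to 8470000; -2.89), of *cest-10*, *clec-179* and *str-249* (IV, 7180001 to 7190000; -2.52), of II from 6430001 to 6440000 with 0% in protein-coding genes (-2.45), and of ZC443.7 and ZC443.1 (V, 12800001 to 12810000; -2.44). The relative density at *hlh-14* was 0.216 and 0 in mixed-stage *xpc-1*, 1.29 and 1.28 in *csb-1*, against 1.03 and 1.17 in WT.

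The strand ratio per window was fitted in the same way. Of 2152 central windows tested, 908 (42.2%) had a lower TS to NTS ratio in *csb-1* than in WT and 1 (0.0465%) a higher one, beside 32.5% lower and 0.171% higher over 9371 windows. In the arms 28.5% were lower, with 37.8% in the arms of III. On chromosome I 40.4% of windows were lower, and on X 23.2%. A share of this size is therefore not particular to the centres. The difference between regions was not tested. The median difference was -0.35 in the centres and -0.29 over all windows. The count of lower windows in the centres was 479 without *csb-1* replicate 1 and 495 without *csb-1* replicate 2.

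Among the 5 largest losses of strand preference in *csb-1*, the window of *hecd-1*, a HECT-type ubiquitin ligase (IV, 7140001 to 7150000), had 240 and 486 reads on the TS and 205 and 399 on the NTS in *csb-1*, and 573 and 246 reads on the TS and 182 and 71 on the NTS in WT. In mixed-stage *xpc-1* it had 1358 and 44 reads on the TS and 30 and 2 on the NTS. The difference was -1.46 for *csb-1* minus WT (SE 0.14, adjusted p = 7.51e-05 from limma). The others were the windows of *usp-4* (IV, 6750001 to 6760000; -1.73), of *egl-45*, a subunit of the translation initiation factor eIF3 (III, 7820001 to 7830000; -1.57), of III from 7170001 to 7180000, 15.9% coding (-1.48), and of *eat-6*, the sodium pump (V, 13120001 to 13130000; -1.47). The only central window with a higher ratio in *csb-1* was that of *fbn-1* (III, 7630001 to 7640000; 0.46, SE 0.16, adjusted p = 0.0398 from limma), and it did not pass without either *csb-1* library.

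In mixed-stage *xpc-1*, 1889 of 2149 central windows tested (87.9%) had a higher TS to NTS ratio than in WT and 13 (0.605%) a lower one, beside 82.3% and 0.999% over all 9310 windows (limma, weighted by counts). The share higher was 76.5% in the arms, 87.8% in the arms of III, 88.5% on chromosome I and 84.2% on X. It is therefore not particular to the centres. A fit with a floor on the weights, added after seeing the data, called 1884 central windows higher and 11 lower. Without mixed-stage *xpc-1* replicate 1, limma called 0 windows in either direction, with 495 higher and 1 lower at an unadjusted p under 0.05.

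Among the largest gains, the window of *kdin-1* (IV, 11040001 to 11050000) had 777 and 14 reads on the TS and 18 and 0 on the NTS in mixed-stage *xpc-1*, and 252 and 121 reads on the TS and 239 and 104 on the NTS in WT (difference 5.26, SE 0.37, adjusted p = 4.43e-09 from limma). The windows of *trcs-1* (IV, 9580001 to 9590000), *cyk-7* (III, 7790001 to 7800000), *ndua-5* and *elo-1* (IV, 9520001 to 9530000), and C14B9.8 and D2007.2 (III, 8140001 to 8150000) differed by 5.34, 5.32, 5.01 and 4.98. These windows are between 19.6% and 78.9% covered by protein-coding genes. In mixed-stage *xpc-1* the *trcs-1* window had 249 and 2 reads on the TS and 5 and 0 on the NTS. The *cyk-7* window had 303 and 3 against 7 and 0, so both of these differences rest mainly on replicate 1.

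A few windows favoured the NTS in mixed-stage *xpc-1*. The window of F56D5.3 and F56D5.6 (IV, 9400001 to 9410000) had 103 and 3 reads on the TS and 231 and 8 on the NTS in mixed-stage *xpc-1*, 239 and 523 against 217 and 444 in *csb-1*, and 306 and 112 against 260 and 106 in WT. Its difference of -1.36 (SE 0.20, adjusted p = 6.45e-06 from limma) became 0.52 when all annotated genes, with non-coding ones, set the strands. The other 4 were the windows of B0034.1 and B0034.4 (II, 5960001 to 5970000; -1.72), of *amdh-1* and the chemoreceptor genes *srg-4* to *srg-7* (III, 6260001 to 6270000; -1.67), of F54H12.2, F54H12.4 and F54H12.8 (III, 7960001 to 7970000; -1.36), and of *srx-6* and *lmd-4* (V, 7310001 to 7320000; -1.35). In mixed-stage *xpc-1* the *amdh-1* window had only 5 and 0 TS reads and 9 and 1 NTS reads. The *srx-6* window had 12 and 0 against 26 and 2, so the NTS lean of both rests on few reads. The B0034.1 window had 16 and 2 against 70 and 3, and the F54H12.2 window 40 and 0 against 118 and 5.

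The highest windows of the centres were partly the same in the L1 strains. Of the 20 with the highest mean density in *csb-1*, 14 were also among the 20 of WT, and 3 among the 20 of mixed-stage *xpc-1*. In both L1 strains the top 5 were the windows of *vhp-1*, of T28B11.1 (V, 10710001 to 10720000 and 10720001 to 10730000), and of II from 6820001 to 6830000 and from 6830001 to 6840000, the second with part of *egl-27*, a relative of the MTA proteins of chromatin complexes. The window from 6820001 of II holds no protein-coding gene and 11 non-coding RNA genes, and had a relative density of 0.843 and 1.27 in mixed-stage *xpc-1*, 3.89 and 3.19 in *csb-1*, against 4.06 and 3.92 in WT. Mixed-stage *xpc-1* was near its genome mean there, at a rank of 51.4% of central windows. In the adjoining window with *egl-27* it had 1.93 and 4.46, with 3.69 and 2.96 in *csb-1*, against 4.13 and 3.79 in WT, and the stretch of *egl-27* printed above had 34 and 1 reads in mixed-stage *xpc-1*, 49 and 60 in *csb-1*, against 79 and 33 in WT. In the first window of T28B11.1, the TS had 1470 and 94 reads in mixed-stage *xpc-1*, 577 and 1072 in *csb-1*, against 1366 and 564 in WT. The NTS had 196 and 9 in mixed-stage *xpc-1*, 805 and 1231 in *csb-1*, against 1072 and 395 in WT.

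In mixed-stage *xpc-1* the highest window lay from 9050001 to 9060000 of III, with *cls-2*, a CLASP-family microtubule protein, and R107.5, and had 7.81 and 11.5 in mixed-stage *xpc-1*, 2.37 and 2.10 in *csb-1*, against 3.56 and 3.26 in WT. It was followed by *vhp-1*, with 6.10 and 12.1 in mixed-stage *xpc-1*, 2.98 and 2.52 in *csb-1*, against 4.37 and 4.49 in WT. The third held *dnc-1*, a dynactin subunit, *lgg-2*, an autophagy protein, and *fic-1* (IV, 10930001 to 10940000), with 6.84 and 10.1 in mixed-stage *xpc-1*, 1.81 and 1.73 in *csb-1*, against 2.66 and 2.74 in WT. Replicate 2 was higher than replicate 1 in all 3 windows, and both were above every L1 library. Windows with *mep-1* (IV, 11520001 to 11530000) and with *uba-1*, the enzyme that activates ubiquitin, and *pyp-1* (IV, 9990001 to 10000000) came next, at a mean of 7.51 and 7.36.

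Gene families were then followed through the windows that hold them, with a gene counted as central when at least 500 of its bases, or all of them, lay in a central window. Of 78 ribosomal protein genes, 25 were central, in 23 windows. Densities, strand ratios and calls of a list are those of whole windows, which can hold other genes, and not of the listed genes alone. The density of these windows was 3.65 and 3.76 in mixed-stage *xpc-1*, 1.33 and 1.32 in *csb-1*, against 1.63 and 1.64 in WT. The TS to NTS ratio of the windows was 5.91 and 7.90, 1.03 and 0.989, and 1.73 and 1.83 in the same groups. In *csb-1* against WT, 16 of the 23 windows (69.6%, beside 10.7% of all windows) were lower and 0 higher in density (median -0.26, against 0.07 over all windows), and 22 (95.7%, beside 32.5%) were lower in strand ratio (median -0.77, against -0.29). In mixed-stage *xpc-1* all 23 were higher in density (beside 26.1% of all windows; median 1.22, against -0.66). A higher strand ratio was called in 21 of them (91.3%), close to the 82.3% of all windows. At *rps-3*, a protein of the small subunit (III, 6206803 to 6207965, plus strand), TS reads numbered 324 and 14 in mixed-stage *xpc-1*, 62 and 92 in *csb-1*, against 166 and 83 in WT, and NTS reads 1 and 0, 21 and 48, and 28 and 13. Over the 26 genes whose middle is central, TS reads in mixed-stage *xpc-1* replicate 1 ran from 120 to 335 (median 216). The median of NTS reads was 5.5, so *rps-3* is not typical of the list.

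Of the 14 windows of proteasome subunits, 11 (78.6%, beside 26.1% of all windows) were higher and 0 lower in density in mixed-stage *xpc-1* (median 1.08). All 14 had a higher strand ratio, as did 82.3% of all windows, and their median of 1.83 was below the 1.91 over all windows. In *csb-1*, 1 was higher and 4 lower in density (28.6%, beside 10.7%), and 11 were lower in strand ratio (78.6%, beside 32.5%; median -0.64). *rpn-2* (III, 6199184 to 6202594, plus strand) had 669 and 39 TS reads in mixed-stage *xpc-1*, 122 and 250 in *csb-1*, against 287 and 149 in WT, with 28 and 0, 93 and 188, and 99 and 36 NTS reads. The 16 windows of germline genes had 11 higher (68.8%, beside 26.1%) and 1 lower in density in mixed-stage *xpc-1* (median 1.08), with 3 each (18.8%, beside 19.7% higher and 10.7% lower) in *csb-1* (median 0.06). Their TS to NTS ratio in mixed-stage *xpc-1* was 11.0 in replicate 1 and 9.21 in replicate 2, where the proteasome windows had 5.75 and 12.4, beside 0.967 and 1.00 in *csb-1*, then 1.43 and 1.48 in WT. At *nos-3*, a Nanos-family gene (II, 9746316 to 9750462, plus strand), TS reads numbered 1077 and 45 in mixed-stage *xpc-1*, 171 and 339 in *csb-1*, against 388 and 176 in WT. *glp-1*, the Notch receptor of the germline (III, 9092241 to 9099698, plus strand), had 1095 and 18, 286 and 605, and 316 and 153 TS reads in the same groups. *rps-3*, *rpn-2*, *nos-3* and *glp-1* were taken from the high end of their lists in TS reads of mixed-stage *xpc-1* replicate 1. The middles of *rps-3* and *rpn-2* lie in the same window of III (from 6200001), so these examples are not separate. Of the 7 germline markers given above, *oma-1*, *oma-2* and *pgl-1* are among the 12 central genes of this list, so the marker level is not a separate observation. The part of germline cells was not tested.

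Windows of chemoreceptor genes lay at the other end. Of 1091 such genes, 251 were central, in 167 windows. The density of these whole windows was 0.591 and 0.707 in mixed-stage *xpc-1*, 1.01 and 1.05 in *csb-1*, against 0.907 and 0.889 in WT. In mixed-stage *xpc-1*, 133 windows (79.6%, beside 56.2% of all windows) were lower and 16 (9.58%, beside 26.1%) higher in density (median -1.38). With scaling to the median window, 107 were lower and 26 higher (median -0.83, against -0.11 over all windows). In *csb-1* 103 (61.7%, beside 19.7%) were higher and 2 lower (median 0.29, against 0.07 over all windows). The strand ratio was lower in *csb-1* in 29 of 167 windows (17.4%, beside 32.5%; median -0.17). The windows had a TS to NTS ratio of 5.86 and 4.67 in mixed-stage *xpc-1*, but most chemoreceptor genes themselves had few reads. In mixed-stage *xpc-1* replicate 1 their median was 6 TS and 7 NTS reads, over the 251 genes whose middle is central. The ratio of the windows is thus not that of these genes. The highest TS count was 146, at *srh-48*, which is therefore not typical of the list. At *srh-48* (II, 9380096 to 9384994, plus strand) TS reads numbered 146 and 5 in mixed-stage *xpc-1*, 201 and 364 in *csb-1*, against 206 and 59 in WT, and NTS reads 68 and 2, 141 and 291, and 116 and 48.

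For density, the median differences of the other lists fell between those of ribosomal proteins and chemoreceptors. Nuclear hormone receptors had 6 higher (10.9%, beside 26.1% of all windows) and 40 lower (72.7%, beside 56.2%) of 55 windows in mixed-stage *xpc-1* (median -0.84). Scaled to the median window, 12 were higher and 22 lower (median -0.28, against -0.11 over all windows). In *csb-1* they had 9 higher (16.4%, beside 19.7%) and 3 lower (5.45%, beside 10.7%). Cuticle collagens had 13 higher (27.7%) and 23 lower (48.9%) of 47 in mixed-stage *xpc-1*, and C-type lectins 9 higher (29.03%) and 16 lower (51.6%) of 31, both near the shares over all windows. Scaling to the median window turned both splits round, as it did for the central windows as a whole. Collagens then had 20 higher and 13 lower (median 0.14), and lectins 12 and 10 (median 0.02), against a median of -0.11 over all windows. In *csb-1*, collagens had 12 higher (25.5%, beside 19.7%) and 2 lower, and lectins 12 higher (38.7%) and 4 lower. Scaled to the median window, 6 collagen windows were higher and 2 lower in *csb-1*, and 8 lectin windows were higher and 3 lower. Their medians were then 0.07 and 0.11, against -0.0037 over all windows. Of 5 windows of vacuolar ATPase subunits, 4 (80%, beside 26.1%) were higher in mixed-stage *xpc-1* and 1 (20%, beside 10.7%) was lower in *csb-1*. The 6 windows of the Hox cluster (*ceh-13*, *lin-39*, *mab-5* and *egl-5* on III) had 2 higher (33.3%, beside 26.1%) and 3 lower (50%, beside 56.2%) in mixed-stage *xpc-1*. Scaled to the median window, 2 were higher and 0 lower (median -0.04, against -0.11 over all windows). In *csb-1* 0 Hox windows were called in either direction. Histone and major sperm protein genes are near-identical copies, so few of their reads were kept and their values are uncertain. Histones had 6 higher (66.7%) and 3 lower (33.3%) of 9 windows tested in mixed-stage *xpc-1* and 1 each (11.1%) in *csb-1*. Major sperm proteins had 3 higher (25%) and 8 lower (66.7%) of 12 in mixed-stage *xpc-1*, and 5 higher (41.7%) and 0 lower in *csb-1*. Over all windows, 26.1% were higher and 56.2% lower in mixed-stage *xpc-1*, and 19.7% and 10.7% in *csb-1*. These shares belong to the scaling to library depth and are not a background for counts scaled to the median window.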

How the data were processed

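CPD XR-seq reads of 8 libraries were used. The authors trimmed adaptors with cutadapt, aligned reads to ce11 (WBcel235) with Bowtie2 and deposited 1 line per distinct read with its mapping quality, the score of each line. Tool versions are not given in the sources used here. Lines with a quality over 20 were counted once, whatever their copies, by midpoint and strand in windows of 10000 bp, with TT sites counted from the RefSeq sequence of WBcel235. Protein-coding genes of one strand set TS and NTS. Windows with a mean of at least 20 reads (for strand ratios also 1000 such bases and 50 TT sites on each strand) were fitted with limma 3.58.1 in R 4.3.3 on log2 values with a pseudocount of 0.5, *csb-1* and mixed-stage *xpc-1* each against WT, with Benjamini-Hochberg adjustment over all windows and a threshold of 0.05. Mixed-stage *xpc-1* was weighted for depth. Scripts were tested on simulated data with 200 windows changed by 1 on the log2 scale. The density fits recovered 200 in *csb-1* and 199 in mixed-stage *xpc-1*, with 10 and 3 false calls. The strand fits recovered 175 and 138, with 6 and 17 false calls, so the strand fit of mixed-stage *xpc-1* was the least reliable.

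Named windows are the 5 largest changes in each direction among called central windows with a mean of at least 100 reads (50 for strand ratios) and the same sign in all 4 pairs of libraries. The 5 highest windows of each group were also named. The members and gene lists were chosen with earlier results of these data known. Per-library ratios were compared by exact permutation. Alternatives covered mapping quality, copies, minimum reads, pseudocount, depth, scaling, weights, gene set, lesion sites, the replicate block and each library left out.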

Additional observations from a re-analysis of the deposited data

Results flagged for a closer look

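The TS to NTS ratio over central windows lay on opposite sides of 1 in the L1 strains, at 0.977 and 0.983 in *csb-1* and at 1.29 and 1.38 in WT. The log2 difference of -0.44 gave p = 0.3333 in an exact two-sided permutation test, the smallest that 2 against 2 can give.

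Reads of low mapping quality, which the comparisons leave out, were nearly all there was in 7 adjoining central windows of chromosome V, from 8820001 to 8890000. These windows held 17479 of the 401535 such reads of the centres in the irradiated libraries (4.35%), in 0.311% of the central windows. There the irradiated libraries had 17504 reads of any quality, of which 25 were kept, and the unirradiated libraries had 18 and 0. Only 0.226% of the TT sites of this stretch lay in unique 21-mers, and 14.8% of its bases were masked as repeats. Of all central windows, 12 had fewer than 50 kept reads, and the one from 8340001 of chromosome III had 3629 reads of any quality, more than any single window of the stretch on V, with 18 kept.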

How the results depend on the processing

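The ratio of centre to arm density stayed above 1 under each alternative. It was 1.70 in mixed-stage *xpc-1*, 1.47 in *csb-1*, 1.51 in WT and 1.30 in WT no UV with reads of any mapping quality, and 2.04, 1.68, 1.76 and 1.55 in the same order with a centre of 50% of each chromosome. It was 2.02, 1.62, 1.73 and 1.16 as a ratio of medians over windows, and 1.64, 1.40, 1.45 and 1.30 with TT sites in unique 21-mers, a choice made after seeing the data. With copies counted it was 1.60 in *csb-1* and 1.64 in WT. Over all pyrimidine pairs it was 1.49 in *csb-1*, 1.54 in WT and 1.38 in WT no UV, and per kb 1.46, 1.51 and 1.35. Leaving out 1 library gave 1.74 to 1.90 in mixed-stage *xpc-1*, 1.54 to 1.57 in *csb-1*, 1.59 to 1.62 in WT and 1.44 to 1.45 in WT no UV.

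The TS to NTS ratio with copies counted was 8.71 in mixed-stage *xpc-1* and 0.970 in *csb-1*, and for WT no UV it was 1.02, turned to the other side of 1. Over all pyrimidine pairs it was 0.967 in *csb-1*, with 0.972 in WT no UV, and without division by TT sites 0.969 and 0.974. A centre of 50% gave 6.88 in mixed-stage *xpc-1* and 0.997 in WT no UV, and all annotated genes gave 0.992 in WT no UV. Leaving out 1 library gave 6.999 to 7.45, 0.977 to 0.983, 1.29 to 1.38 and 0.981 to 0.988 in mixed-stage *xpc-1*, *csb-1*, WT and WT no UV.

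Counts of called windows moved more. For density in *csb-1*, scaling to the median window gave 286 higher and quantile normalization 166 lower, and leaving out 1 library gave 64 to 380 higher and 108 to 313 lower (161 lower without WT replicate 1). For density in mixed-stage *xpc-1*, thinning to one depth gave 262 higher and 10 lower, a fit without weights 454 and 517, and scaling to the median window 650 lower, with 594 to 814 higher and 678 to 1227 lower when 1 library was left out. For the strand ratio in *csb-1*, the count of higher windows was 0 with each position counted once or no minimum, 2 with copies or weights, and 3 when thinned, and 0 to 37 higher and 479 to 1193 lower when 1 library was left out (37 higher without WT replicate 1). For the strand ratio in mixed-stage *xpc-1*, thinning gave 426 higher and 0 lower, a fit without weights 2 lower, and leaving out 1 library 0 to 1902 higher and 0 to 15 lower. The strand difference at IV 9400001 reversed to 0.52 with all annotated genes. The causes were not tested.

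Replicate numbers did not pair the libraries, with correlations of deviations of -0.21, -0.10 and 0.20 between groups. With a replicate block, density calls were 572 higher and 356 lower in *csb-1* and 665 and 1048 in mixed-stage *xpc-1*, and strand calls 3 and 962, and 1916 and 14. Of the values for named windows, 482 kept their side of the threshold, 32 lost it and 1 reversed. Depth limits mixed-stage *xpc-1* replicate 2 and both WT no UV libraries.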
